A study of Mus musculus with 3 samples.

Results

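The chromatin around 8 genes of the epithelial to mesenchymal transition was compared in 3 mouse cell states profiled by ATAC-seq, which tags open chromatin with a transposase. The genes were Cdh1, Epcam, Vim, Cdh2, Snai1, Zeb1, Zeb2 and Twist1. Every deposited peak that overlapped the body of one of these genes or the 50 kb on either side was taken (GENCODE M21, mm10). Peaks of the 3 lists that shared at least 1 bp were merged into one region, which gave 174 regions in the 8 windows, of 219488 regions in the whole series. These regions held 104 peaks of SOX2-ON, 121 of SOX2-OFF and 118 of CEpiLC.

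All 3 samples came from the HM1 mouse embryonic stem cell line of strain 129, and each state had 1 sample. SOX2-ON and SOX2-OFF were the same Sox2-/- line, in which a doxycycline-inducible Sox2 transgene at the Hprt locus replaces the endogenous gene and rtTA is expressed constitutively from Rosa26. Doxycycline (1 µg/ml) was kept during differentiation in SOX2-ON and withdrawn in SOX2-OFF. The wild-type control of the paper was the parental HM1 TetON line, so rtTA was not particular to the engineered line. CEpiLC were wild-type cells that received no doxycycline. All were differentiated in N2B27 medium with 10 ng/ml bFGF and 5 µM LGK974, an inhibitor of WNT secretion, for 2 days. The WNT pathway activator CHIR99021 was then added until day 3, when 50000 cells per sample were collected at 72 h. CEpiLC stands for caudal epiblast-like cells, a culture model of the posterior part of the embryo from which trunk mesoderm and spinal cord arise. The engineered line differs from the wild-type cells by its whole history as well as by Sox2, and these cannot be told apart here.

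In the transition, epithelial cells lose the adhesion that joins them to their neighbours and become migratory. E-cadherin, encoded by Cdh1, is lost from the surface and N-cadherin, encoded by Cdh2, is gained, while the transcription factors of the SNAIL, ZEB and TWIST families bind E-box sequences and repress epithelial genes. In the embryo this switch takes place in the primitive streak, where epiblast cells leave the epithelium to form mesoderm.

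Presence, strength and width were compared. A region was present in a list if the list had a peak in it. The strength of a region was the percentile of its strongest peak among all peaks of the same list, ordered by the deposited −log10 p from 0 for the weakest to 100 for the strongest. A strong peak was one of the 20000 strongest of its list, which corresponds to percentiles of 84.6, 84.8 and 84.7 for SOX2-ON, SOX2-OFF and CEpiLC, respectively. Percentiles were compared in place of the deposited values because these grow with sequencing depth, and the −log10 p of the peak ranked 20000 was 26.4, 21.2 and 10.6 in these lists. Fold enrichments are given as the lists state them and are not compared between lists. The lists were close in length, with 129843, 131520 and 130348 peaks. With 1 sample per state there is no replicate error and no test between states, and the differences below describe these 3 libraries. Epiblast markers (Pou5f1, Fgf5, Sox2, Otx2, T, Cdx2 and Nkx1-2) had a peak at the start in all 3 lists in 7 of 7 cases. Of 7 fibroblast markers, looked at because the stem cells are grown on feeder fibroblasts, 5 had one in all 3 lists, and Col3a1 and Postn had none in any. Of all coding genes, 71.8% had a start peak in all 3 lists, and the fibroblast count is at that level. A peak at a start is not expression.

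All 8 genes had a peak within 1 kb of a transcription start in all 3 lists. Among 21938 coding genes, the shares with one were 74.9%, 75.8% and 76.3% for SOX2-ON, SOX2-OFF and CEpiLC. The start peaks of the 8 genes lay between the 87.8th and the 96.8th percentile of their lists. The percentile of a gene's start differed between lists by 0.705 to 5.00 points, with a median of 1.45. For the 15748 coding genes with a start peak in all 3 lists, the median difference was 2.38 points, and 4.85% differed by 20 points or more. None of the 8 genes did. Starts of the epithelial genes, the mesenchymal genes and the 4 transcription factors thus carried a peak in all 3 states.

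Cdh1, whose product E-cadherin holds epithelial cells together, is on chromosome 8 (chr8:106603351-106670246, plus strand). Its start peak was at the 96.8th percentile in SOX2-ON, the 96.7th in SOX2-OFF and the 92.0th in CEpiLC, with fold enrichments of 3.86, 3.00 and 2.48. CEpiLC was lowest, 4.78 points below SOX2-ON, and the samples of the engineered line differed little. Both samples of that line carried 3.05 and 3.00 times as many peaks per Mb on chromosome 8 as on their other autosomes (chromosomes 6 and 11 left out), against 1.01 times in CEpiLC. Ranked among the peaks of chromosome 8 alone, the Cdh1 start was at the 97.9th, 97.6th and 90.1st percentile. The part that the chromosome plays in this difference was not tested.

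Epcam encodes an adhesion molecule of the epithelial surface (chr17:87635979-87651129, plus strand). Its start peak was at the 94.7th percentile in SOX2-ON, the 95.8th in SOX2-OFF and the 94.8th in CEpiLC. These values lie within 1.1 points of each other.

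Vim encodes vimentin, the intermediate filament of mesenchymal cells (chr2:13573927-13582826, plus strand). Its start peak was at the 92.5th percentile in SOX2-ON, the 93.9th in SOX2-OFF and the 96.8th in CEpiLC. The order was the reverse of that at Cdh1, with CEpiLC highest. Cdh2 encodes N-cadherin (chr18:16588877-16809246, minus strand). Its start peak was at the 92.2nd, 91.7th and 92.7th percentile in SOX2-ON, SOX2-OFF and CEpiLC, the values again within about 1 point.

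Among the transcription factors, Snai1 had its start peak at the 93.8th percentile in SOX2-ON, the 94.2nd in SOX2-OFF and the 93.5th in CEpiLC. This was the narrowest spread of the 8 genes. Zeb1 had the widest, at the 94.8th, 92.3rd and 89.8th percentile, falling from SOX2-ON to CEpiLC. Zeb2 had the lowest start peaks of the group, at 87.8, 89.5 and 88.2. Twist1 was at 91.8, 91.0 and 91.9.

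**Figure D1:**
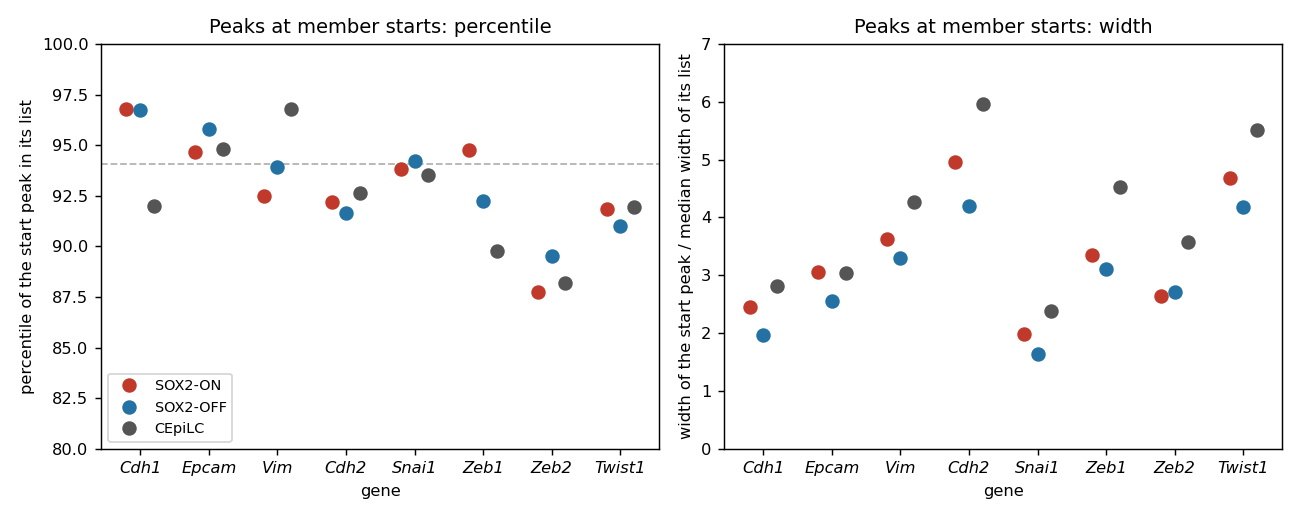
Each point is the strongest peak within 1 kb of a start of one gene in one list (red, SOX2-ON; blue, SOX2-OFF; grey, CEpiLC). The left panel gives its percentile in the list on an axis that begins at 80, with a dashed line at 94.1, the median start percentile of coding genes in SOX2-ON, and the right panel its width over the median peak width of the list. All 24 points on the left lie between 87.8 and 96.8, and those of Cdh1, Vim and Zeb1 are the most spread.

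Peaks at the starts were wider than the median peak of their list. No width background over the starts of coding genes was computed. They were widest at Cdh2, at 3078 bp in SOX2-ON, 3112 bp in SOX2-OFF and 3132 bp in CEpiLC, and at Twist1, at 2912, 3096 and 2902 bp. They were narrowest at Snai1, at 1236, 1209 and 1252 bp. The median peak of a list was 621, 741 and 526 bp wide in the same order, so the start peak of Cdh2 was 4.96, 4.20 and 5.95 times the median of its list and that of Snai1 1.99, 1.63 and 2.38 times. Over the 61 member regions present in all 3 lists, the median width was 997 bp in SOX2-ON, 1196 bp in SOX2-OFF and 919 bp in CEpiLC. The same medians over all coding windows were 1012, 1175 and 909 bp. Relative to the median of its list, the CEpiLC peak was the widest of the 3 in 42.6% of the member regions and in 54.4% of those of all coding windows.

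Presence was compared over all regions of the windows, those at starts included. Of the 174 regions, 61 (35.1%, Wilson 95% interval 28.4 to 42.4) were present in all 3 lists, against 29.8% of the 177231 regions in the windows of all coding genes. This excess was absent with a −log10 q of at least 2 (36.1% against 36.9%) and with 10 kb windows (30.8% against 30.9%). With a −log10 q of at least 5 the member share was the lower one (33.8% against 45.6%). SOX2-OFF and CEpiLC, the states without doxycycline-driven SOX2, shared 23 regions (13.2%, 8.97 to 19.1) that SOX2-ON lacked, against 7.13% in the coding windows. The other classes were nearer to the coding windows or below them. The 2 samples of the engineered line shared 11 regions without CEpiLC (6.32% against 9.74%), and SOX2-ON shared 7 with CEpiLC alone (4.02% against 3.47%). Regions of a single list numbered 22 for SOX2-ON (12.6% against 15.6%), 26 for SOX2-OFF (14.9% against 14.3%) and 24 for CEpiLC (13.8% against 20%). The intervals cover counting error only, and regions of one window are not independent of each other.

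The 23 regions absent from SOX2-ON were unevenly spread over the genes. Cdh2 held 7 of them, Zeb2 held 5, Cdh1 4, Snai1 3, Epcam 2, and Vim and Zeb1 1 each, while Twist1 had none. Without Cdh1, 19 of 124 regions (15.3%) were of this kind. Outside chromosomes 6, 8 and 11, where the number of peaks per Mb stood apart in at least 1 list, the class made up 8.49% of the regions of coding windows. With a −log10 q of at least 2 required of every peak, 11 of 122 regions (9.02%) were in the class, against 6.38% in the coding windows, and with 100 kb windows 29 of 263 (11.03%) against 7.09%. With a −log10 q of at least 5, 5 of 71 regions (7.04%) were in the class, against 3.65% in the coding windows.

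**Figure D2:**
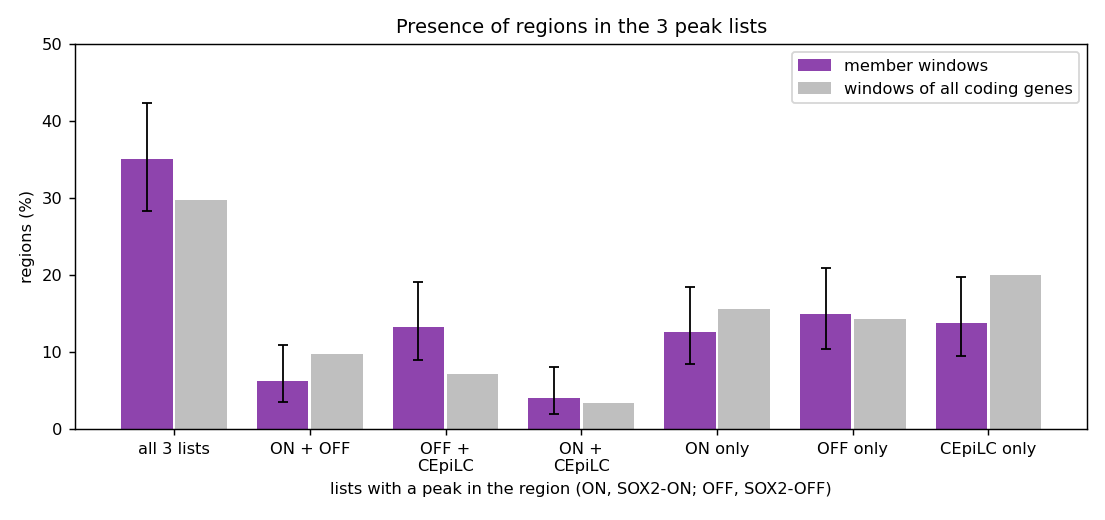
Bars give the percentage of regions with a peak in the lists named below them, for the 174 regions of the member windows (purple, with Wilson 95% intervals) and the 177231 regions of all coding windows (grey). The class of SOX2-OFF with CEpiLC stands at 13.2% and 7.13%, and the class of all 3 lists at 35.1% and 29.8%.

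The windows themselves differed in how many regions they held. Cdh1 had 50 regions in its window of 167 kb, or 30.0 per 100 kb, a density above that of 99.4% of coding genes. Those genes lie on all chromosomes. On chromosome 8, SOX2-ON and SOX2-OFF had 3.05 and 3.00 times as many peaks per Mb as on other autosomes. No density background was computed for chromosome 8 alone, and CEpiLC, at 1.01 times, held 28 of the 50 regions. Snai1 had 24.9 per 100 kb, above 93.9% of coding genes. Zeb1 had 5 regions in 284 kb, or 1.76 per 100 kb, above 7.39% of coding genes, and Twist1 had 5 regions in 102 kb. The median over coding genes was 14.1 per 100 kb. Of the 174 regions, 22 lay within 1 kb of a coding start, 20 overlapped an exon, 62 lay in introns and 70 between genes.

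**Figure D3:**
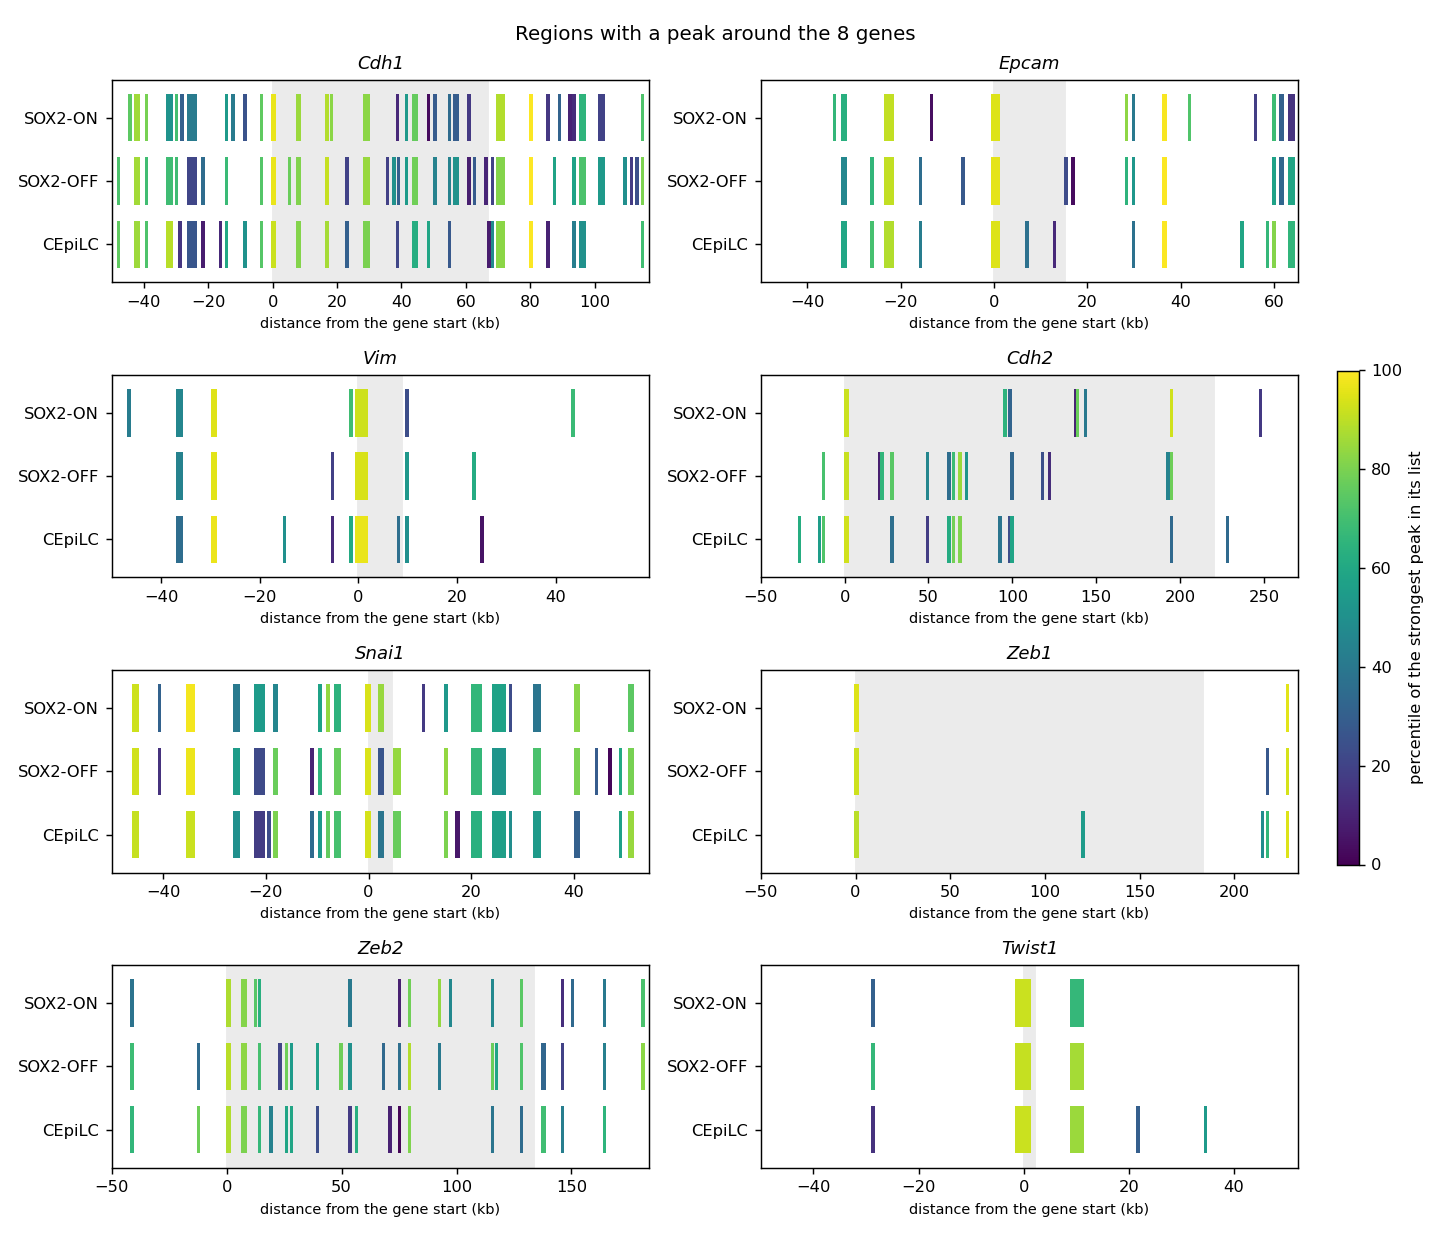
Each panel shows the regions around one gene by distance from its start in kb, with transcription running to the right and the gene body shaded. Each of the 3 rows is a list, a bar marks a region with a peak in that list, and its colour gives the percentile of the strongest peak. Bars narrower than the line width are drawn wider than they are. Between the start peak of Cdh2 and its region at 68.8 kb, SOX2-OFF and CEpiLC hold bars and SOX2-ON holds none.

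Of the 174 regions, 25 held a strong peak of at least 1 list, and 17 of these were strong in all 3. The same shares over all coding windows were not computed, so these counts have no background and cannot be called particular to these genes. In the whole lists, too, few strong peaks were missing from another list, as the next paragraph gives. Among the 17 were the starts of the 8 genes, 5 regions at starts of neighbouring coding genes, and 4 regions away from starts. The last were found upstream of Cdh1, in an intron of Cdh1, upstream of Epcam and beyond the end of Zeb1. The Zeb1 region, 228 kb after the start, was at the 95.4th, 93.7th and 94.7th percentile in SOX2-ON, SOX2-OFF and CEpiLC, above the Zeb1 start itself in each list. The intronic region of Cdh1, 16.8 kb after the start, was at the 88.6th, 91.1st and 86.7th percentile.

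Only 1 strong peak of the 8 windows was missing from another list, with less than 10% of its length covered there. It was a SOX2-OFF peak in an intron of Cdh2, absent from SOX2-ON and present in CEpiLC. None of the 21 strong peaks of SOX2-ON was missing from SOX2-OFF or CEpiLC, which allows a share of up to 14.3%. None of the 20 strong peaks of SOX2-OFF was missing from CEpiLC, which allows up to 15%. None of the 19 strong peaks of CEpiLC was missing from either other list, which allows up to 15.8%. In the whole lists, 5.04% of strong SOX2-ON peaks were missing from SOX2-OFF and 8.58% from CEpiLC. Strong SOX2-OFF peaks were missing from SOX2-ON in 1.3% of cases and from CEpiLC in 1.06%, and strong CEpiLC peaks from SOX2-ON in 1.42% and from SOX2-OFF in 0.62%. The counts in the member windows are too small to be set apart from these shares.

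Among regions present in both lists of a pair, a shift was a difference of 20 percentile points or more. Between SOX2-ON and SOX2-OFF, 72 member regions were shared, of which 4 (5.56%) were higher in SOX2-ON and 12 (16.7%) higher in SOX2-OFF. In the coding windows these shares were 9.18% and 14.4%. Against CEpiLC, 6 of 68 regions (8.82%) were higher in SOX2-ON and 12 (17.6%) higher in CEpiLC, with 10.7% and 15.9% in the coding windows. Between SOX2-OFF and CEpiLC, 12 of 84 regions (14.3%) were higher in SOX2-OFF and 11 (13.1%) in CEpiLC, with 11.5% and 10.4% in the coding windows. The member shares were near those of the coding windows in every pair. More regions were higher in CEpiLC than in SOX2-ON in the coding windows too, and in the member windows this depended on the ranking. Ranked among regions in all 3 lists, 7 of 61 were higher in SOX2-ON and 5 higher in CEpiLC. At a −log10 q of at least 2 these were 6 and 6 of 46. The coding-window shares under these rankings were not computed. Of the 61 regions in all 3 lists, 22 had a percentile range of 20 points or more, and 3 of these were strong in at least 1 list. These 3 lay at Cdh1, Cdh2 and Snai1. The share of regions with such a range over all coding windows was not computed, so the 22 have no background here.

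**Figure D4:**
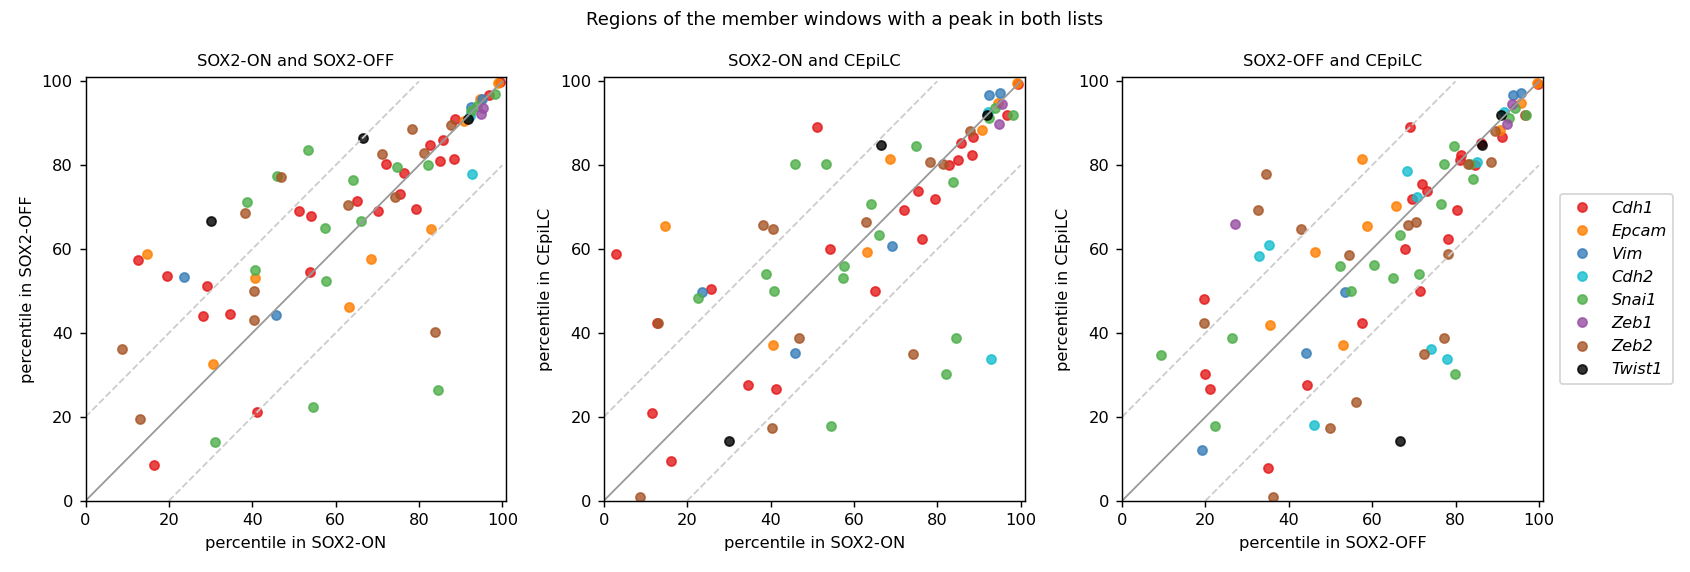
Each point is a region present in both lists of a pair, coloured by gene, with its percentile in one list on the x axis and in the other on the y axis. The solid line marks equal percentiles and the dashed lines a difference of 20 points. In the left panel 16 of 72 points lie on or outside the dashed lines, and in the middle panel the Cdh2 point at 92.8 in SOX2-ON and 33.7 in CEpiLC lies far below the solid line.

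The Cdh1 region lay between Cdh3 and Cdh1, 32.0 kb upstream of the Cdh1 start (chr8:106570320-106572323). It was at the 51.3rd percentile in SOX2-ON, the 69.0th in SOX2-OFF and the 89.2nd in CEpiLC, with fold enrichments of 1.63, 1.70 and 2.65. It was thus the reverse of the Cdh1 start, with CEpiLC highest, and was strong only in that list. Ranked within chromosome 8, it was at the 70.8th, 82.7th and 86.5th percentile, a difference of less than 20 points. A second region upstream, 42.3 kb before the start, was strong in all 3 lists, at the 85.8th, 86.1st and 85.4th percentile. Within the gene, an intronic region 18.4 kb after the start had a SOX2-ON peak at the 82.4th percentile and no peak in the other lists. In all, SOX2-ON held 33 of the 50 Cdh1 regions (66%), SOX2-OFF 37 (74%) and CEpiLC 28 (56%). On chromosome 8 as a whole, regions of coding windows were present at 72.4%, 72.1% and 30.5%.

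At Epcam, 13, 14 and 13 of 22 regions were present in SOX2-ON, SOX2-OFF and CEpiLC. Over all coding windows, 58.6%, 60.9% and 60.3% of regions were present in these lists. Outside chromosomes 6, 8 and 11 the shares were 58.8%, 61.1% and 65.6%. They are the background for the presence counts of this gene and those below. The strong region 22.5 kb upstream was at the 90.7th, 90.6th and 88.4th percentile. An intergenic region 28.4 kb after the start was at the 82.8th percentile in SOX2-ON, at the 64.7th in SOX2-OFF and absent from CEpiLC. Vim had few regions of its own, and 9 of 12 were present in CEpiLC. A weak region 9.82 kb after the Vim start was at the 23.6th percentile in SOX2-ON, the 53.4th in SOX2-OFF and the 49.7th in CEpiLC.

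Cdh2 had the lowest share of regions present in SOX2-ON of the 8 genes. Its window on chromosome 18 held 26 regions, of which 8 (30.8%, 16.5 to 49.99) were present in SOX2-ON, 15 (57.7%, 38.9 to 74.5) in SOX2-OFF and 14 (53.8%, 35.5 to 71.2) in CEpiLC. The shares in coding windows outside chromosomes 6, 8 and 11 were 58.8%, 61.1% and 65.6%. Only the start and one intronic region were present in all 3. The strong SOX2-OFF peak missing from SOX2-ON lay in an intron 68.8 kb after the start (region chr18:16739201-16741604). It was 1802 bp wide, with a fold enrichment of 2.38, at the 85.1st percentile, just inside the limit for strong peaks. The CEpiLC peak there was 2404 bp wide and at the 80.7th percentile.

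Of the 6 other Cdh2 regions found in SOX2-OFF and CEpiLC only, 5 were intronic. Those at 62.2 and 64.7 kb after the start flanked the strong one on the side of the start. The region at 64.7 kb was at the 68.4th percentile in SOX2-OFF and the 78.7th in CEpiLC, and that at 62.2 kb at the 35.2nd and the 60.9th. The region at 28.3 kb went the other way, at the 74.1st and the 36.2nd. The one region outside the gene, 12.4 kb upstream, was at the 70.7th and the 72.4th. SOX2-ON had 6 regions of its own at Cdh2, 175 to 588 bp wide. The highest of them, at the 77.1st percentile, lay within 1 kb of an annotated inner start of Cdh2.

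One intronic region of Cdh2 had the opposite order. It lay 195 kb after the start (chr18:16613441-16615397) and was at the 92.8th percentile in SOX2-ON, the 78.0th in SOX2-OFF and the 33.7th in CEpiLC. The fold enrichments were 4.42, 2.14 and 1.68, and the peaks were 1301, 1813 and 224 bp wide. It was strong in SOX2-ON only, where it ranked above the Cdh2 start. The 2 samples of the engineered line are on the same side here, with the doxycycline-treated one higher.

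Snai1 encodes the SNAIL repressor of Cdh1 and is a short gene on chromosome 2 (chr2:167538195-167542814, plus strand). Of its 26 regions, CEpiLC held 22, SOX2-OFF 21 and SOX2-ON 19, and 15 were present in all 3. At and just after the gene, 3 neighbouring regions showed 3 patterns. The start was level in all lists, as given above. An intronic region 2.41 kb after the start (chr2:167540086-167541126) was at the 84.6th percentile in SOX2-ON, the 26.4th in SOX2-OFF and the 38.8th in CEpiLC. Its SOX2-ON peak was exactly the 20000th of the list, the last one counted as strong. A region 5.53 kb after the start, past the end of the gene (chr2:167543026-167544424), was absent from SOX2-ON, at the 84.2nd percentile in SOX2-OFF and at the 76.7th in CEpiLC.

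Between SOX2-ON and CEpiLC, 3 of the 17 shared Snai1 regions were higher by 20 points or more in SOX2-ON and 3 in CEpiLC, and against SOX2-OFF 2 of 16 were higher and 3 lower in SOX2-ON. Some further Snai1 regions were lowest in SOX2-ON. The region 18.1 kb upstream was at the 45.9th percentile in SOX2-ON, the 77.3rd in SOX2-OFF and the 80.4th in CEpiLC. The region 15.0 kb after the start was at the 53.3rd, 83.6th and 80.3rd percentile, and that at 32.7 kb at the 38.8th, 71.2nd and 54.0th. In contrast, a region 21.2 kb upstream, overlapping an exon of Rnf114, was at the 54.6th percentile in SOX2-ON, the 22.3rd in SOX2-OFF and the 17.9th in CEpiLC. The region 40.6 kb after the start was at the 82.2nd, 79.97th and 30.3rd percentile, so that the engineered line was high in both samples. The region 7.88 kb upstream was at the 83.8th percentile in SOX2-ON and the 75.9th in CEpiLC and was absent from SOX2-OFF.

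The sequences of the Snai1 start and of the regions that differed most near it are given with that of the Twist1 region described next. The first is the 250 bases upstream of the Snai1 start from RefSeq (GRCm38.p6, chr2:167537945-167538194, plus strand). The others are the central 250 bases of a region, on the plus strand of GRCm38.p6, at chr2:167540481-167540730, chr2:167543600-167543849 and chr12:33967671-33967920, and these regions were chosen after their values were seen. Capitals mark matches to 4 motifs on either strand: the E-box CAGGTG, the SOX core ACAANG, the TCF/LEF motif CTTTGNT and the T-box motif AGGTGTNA. The SOX core read on the minus strand can overlap the TCF/LEF motif, and the T-box motif can overlap the E-box.
Snai1 promoter: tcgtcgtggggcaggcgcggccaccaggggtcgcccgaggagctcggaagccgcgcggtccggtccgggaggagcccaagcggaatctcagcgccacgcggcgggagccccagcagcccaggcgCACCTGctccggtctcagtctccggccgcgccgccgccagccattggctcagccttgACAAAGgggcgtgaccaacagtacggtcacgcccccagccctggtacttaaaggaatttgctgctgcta
Snai1 intronic region: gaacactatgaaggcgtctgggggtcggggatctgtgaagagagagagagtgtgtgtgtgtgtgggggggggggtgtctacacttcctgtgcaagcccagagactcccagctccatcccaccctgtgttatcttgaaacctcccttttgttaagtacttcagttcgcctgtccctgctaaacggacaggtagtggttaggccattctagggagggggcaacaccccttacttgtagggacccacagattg
Snai1 region past the gene: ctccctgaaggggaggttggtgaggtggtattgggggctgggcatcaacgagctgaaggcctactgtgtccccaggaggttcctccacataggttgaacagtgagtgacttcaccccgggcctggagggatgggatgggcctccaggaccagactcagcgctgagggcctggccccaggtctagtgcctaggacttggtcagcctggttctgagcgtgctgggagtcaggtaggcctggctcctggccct
Twist1 region: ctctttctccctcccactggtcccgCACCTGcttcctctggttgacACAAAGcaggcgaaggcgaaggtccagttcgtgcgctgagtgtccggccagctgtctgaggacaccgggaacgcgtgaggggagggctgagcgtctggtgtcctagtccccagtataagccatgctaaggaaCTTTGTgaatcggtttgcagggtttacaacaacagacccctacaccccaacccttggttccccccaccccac

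The Snai1 promoter held 1 E-box and 1 SOX core match, and its GC content was 70%. The intronic region and the region past the gene held none of the 4 motifs in these bases. The Twist1 region held 1 E-box and 2 SOX core matches. In the RefSeq promoters the E-box was found in 17.2% and the SOX core in 36.3%. Of the members with an entry in the promoter table, Epcam held 2 E-boxes, Vim 1 SOX core match and Twist1 none of the motifs. Zeb2 had 4 entries, of which 1 held a SOX core match and 3 held none. Cdh1, Cdh2 and Zeb1 had no entry. Over the central 250 bases of the 174 regions, 23.6% held the E-box, 45.4% the SOX core, 18.4% the TCF/LEF motif and 4.6% the T-box motif. The shares over all coding windows were 21.4%, 42.5%, 19.7% and 3.56%, so the member regions were close to them. Of the 23 regions present in SOX2-OFF and CEpiLC only, 8 (34.8%) held the E-box, 9 (39.1%) the SOX core, 4 the TCF/LEF motif and 1 the T-box motif. The member regions of all 3 lists were close, with the E-box in 31.1% and the SOX core in 34.4%.

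Twist1 encodes a basic helix-loop-helix factor that binds E-boxes (chr12:33957671-33959829, plus strand). Beside its start, it had one large region, 10.1 kb after the start (chr12:33966496-33969095). This was at the 66.5th percentile in SOX2-ON, the 86.4th in SOX2-OFF and the 84.8th in CEpiLC, with fold enrichments of 1.99, 2.53 and 2.28. It was strong in both of the lists without doxycycline. The range of 19.9 points put it just outside the limit of 20. SOX2-ON was 26.0 points below SOX2-OFF when ranked among regions in all 3 lists, 22.2 within the chromosome, 30.4 at a −log10 q of at least 2 and 18.5 by fold enrichment. The SOX2-ON peak was 2226 bp wide and the other 2 were 2546 and 2595 bp. A region 28.6 kb upstream, within 1 kb of the start of the neighbouring Ferd3l, was at the 30.1st, 66.7th and 14.2nd percentile. The remaining Twist1 regions were seen in CEpiLC only, at the 29.8th and 54.2nd percentile.

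Zeb1 and Zeb2 encode zinc finger repressors of Cdh1. Zeb1 (chr18:5591860-5775467, plus strand) had 5 regions, of which CEpiLC held all 5, SOX2-OFF 3 and SOX2-ON 2. Past its start, the gene body held no peak except one of CEpiLC, at the 54.4th percentile. A region 217 kb after the start was absent from SOX2-ON, at the 27.2nd percentile in SOX2-OFF and at the 65.9th in CEpiLC.

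Zeb2 (chr2:44983632-45117395, minus strand) had 28 regions, of which SOX2-ON held 16, SOX2-OFF 22 and CEpiLC 19. A region 7.42 kb after the start, at further annotated starts of Zeb2, was at the 81.3rd, 82.9th and 80.4th percentile. An intronic region at 79.5 kb was at the 78.3rd percentile in SOX2-ON, the 88.5th in SOX2-OFF and the 80.7th in CEpiLC and was strong in SOX2-OFF only. An intronic region at 26.1 kb was absent from SOX2-ON, at the 78.1st percentile in SOX2-OFF and at the 58.8th in CEpiLC. Other Zeb2 regions had the reverse order. The region at 92.6 kb was at the 83.9th percentile in SOX2-ON, at the 40.3rd in SOX2-OFF and absent from CEpiLC, and that at 128 kb at the 74.3rd, 72.3rd and 35.0th. No peak of these 2 regions reached the limit for strong peaks.

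The wider gene set of the transition was followed at its starts only. It comprised 55 genes in 5 lists. Of these, 50 had a start peak in all 3 lists, 4 in some lists but not in others and 1 in none. Of all coding genes, 71.8% had a start peak in all 3 lists and 8.17% in some lists only. The 55 include microRNA hairpins, which are not coding genes. Among the 4 were Mir200a and Mir429, which shared the same peak. Of the 8 transcription factors of the transition besides the members (Snai2, Snai3, Twist2, Prrx1, Foxc2, Tcf3, Tcf4 and Id1), all 8 had start peaks in all 3 lists, with a percentile range of at most 8.18. The same held for 8 of 8 genes of TGF-β signalling, an inducer of the transition, with a range of at most 6.19.

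Of 17 epithelial junction and surface genes, 16 had a start peak in all 3 lists. Cldn6, which encodes a tight junction protein, was at the 86.2nd percentile in SOX2-ON, the 87.8th in SOX2-OFF and the 59.7th in CEpiLC. Rab25, a small GTPase of epithelial cells, had a start peak in SOX2-OFF only, at the 46.2nd percentile. Of 10 genes of mesenchymal structure, Acta2 (smooth muscle actin) had no start peak in SOX2-ON and was at the 17.6th percentile in SOX2-OFF and the 70.0th in CEpiLC. S100a4, a calcium-binding protein of motile cells, was at the 23.1st, 49.8th and 52.2nd percentile. The other 8 genes of this list had start peaks in all 3 lists, with ranges under 20 points.

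Among the 12 epithelial regulators were the microRNAs of the miR-200 family, which repress Zeb1 and Zeb2 through sites in their transcripts. Their mature 3p arms from RefSeq (GRCm38.p6) are printed with the seed, bases 2 to 8, in capitals, to show the 2 seeds that the clusters share.
miR-141-3p: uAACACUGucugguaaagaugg
miR-200a-3p: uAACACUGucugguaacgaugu
miR-200b-3p: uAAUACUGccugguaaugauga
miR-200c-3p: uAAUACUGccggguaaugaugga
miR-429-3p: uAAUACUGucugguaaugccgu

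The hairpins of Mir200c and Mir141 lie close together on chromosome 6, and those of Mir200a, Mir200b and Mir429 on chromosome 4. One peak lay within 1 kb of both Mir200c and Mir141, at the 85.2nd percentile in SOX2-ON, the 83.0th in SOX2-OFF and the 54.7th in CEpiLC. The annotated start here is that of the hairpin and not that of the primary transcript. SOX2-ON and SOX2-OFF had 3.12 and 3.29 times as many peaks per Mb on chromosome 6 as on other autosomes, and CEpiLC 0.930 times. Ranked within chromosome 6, the peak was at the 93.6th, 92.8th and 52.7th percentile. In the cluster on chromosome 4, Mir200a and Mir429 had one weak peak in SOX2-ON only, at the 16.4th percentile, and Mir200b had none. The 7 protein-coding regulators of this list (Grhl2, Grhl3, Ovol1, Ovol2, Esrp1, Esrp2 and Elf3) had start peaks in all 3 lists.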

How the data were processed

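ATAC-seq was carried out on 3 samples, 1 per group, and groups were taken from the labelled genotype and doxycycline treatment. The authors trimmed reads, aligned them to mm10 with BWA and discarded mitochondrial reads, and MACS2 then gave a list of broad peaks for each sample (nf-core/atacseq pipeline). No control library is described, and how cut positions were shifted is not given in the sources used here. The deposited columns hold a score, a fold enrichment (ratio to local background), a −log10 p and a −log10 q per peak. All lists ended at a q of 0.1. Read totals were not used, so depth is unknown.

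Peaks of the 3 lists were merged where they shared at least 1 bp (Python 3.11.15, numpy 2.4.6), and percentiles, strong peaks and widths were computed within each list. Merging and ranking were tested on simulated lists. Shares carry Wilson 95% intervals from scipy 1.17.1, and a count of 0 is read as allowing up to 3 counts. All peaks lay within the chromosome ends of GRCm38.p6, the build of mm10. The background for presence and rank was the regions within 50 kb of any coding gene, and for missing strong peaks all strong peaks of the list.

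Regions named were those strong in one list and missing from another, or in all 3 lists with a range of at least 20 points and strong in at least 1. Others were chosen after their values were seen. Genes of the 5 lists were named where their start peak was in some lists only or differed by 20 points or more. The members and lists were chosen with earlier results of these data known. The −log10 q minimum, window, merging, ranking, coverage, strong-peak limit, width and start distance were varied. Leaving out Cdh1 or the starts of other genes from the rank comparison was added after seeing the data.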

Additional observations from a re-analysis of the deposited data

How the results depend on the processing

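No paired analysis was possible because there was 1 sample in each state, and no replicate could be left out. Start peaks stayed at 8 of 8 genes in every list when a peak had to cover the start base, and relative widths kept within 1.5 times with summed widths. A −log10 q of at least 5 is easier to reach in the lists with higher −log10 p. At that minimum, 18.3% of member regions were in the engineered line only (14.3% in the coding windows) and 19.7% in SOX2-ON only (20.1%). SOX2-OFF and CEpiLC alone shared 7.04% (3.65%), and SOX2-ON and CEpiLC alone 1.41% (0.723%). Regions of CEpiLC only made up 1.41% (1.89%). With a −log10 q of at least 2, SOX2-ON and CEpiLC alone shared 1.64%, against 1.97% in the coding windows. The other 36 presence values of the member regions stayed within the intervals given, which does not compare them with the coding windows.

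With 50000 strong peaks per list, 10 strong SOX2-ON peaks were missing from SOX2-OFF and 12 from CEpiLC, 11 SOX2-OFF peaks from SOX2-ON and 6 from CEpiLC, and 12 CEpiLC peaks from SOX2-ON and 4 from SOX2-OFF. With 10000, the Cdh2 peak was no longer strong and 0 of 10 SOX2-OFF peaks were missing from SOX2-ON. When 50% of the length had to be covered, 1 of 21 SOX2-ON peaks was missing from SOX2-OFF and 2 of 21 from CEpiLC. With 100 kb windows, 1 of 29 was missing from each.

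Ranked within chromosomes, 11 of 68 regions were higher in SOX2-ON than in CEpiLC. The coding-window shares were not computed for this ranking or those that follow. Among the 61 regions in all 3 lists, 5 were lower and 7 higher in SOX2-ON than in CEpiLC, and 7 higher and 3 lower in SOX2-OFF. With a −log10 q of at least 2, 6 of 46 were lower and 6 higher in SOX2-ON, and 3 of 55 lower and 10 higher in SOX2-OFF. No direction was reversed at the 4 regions whose difference was recomputed (32.0 kb before Cdh1, 195 kb after the start of Cdh2, 2.41 kb after that of Snai1 and 10.1 kb after that of Twist1). The Cdh2 and Snai1 regions could not be compared with a −log10 q of at least 2. The CEpiLC peak at Cdh2 (1.71) and the SOX2-OFF peak at Snai1 (1.72) fell below it.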
